A study of Mus musculus with 2 samples.

Results

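The circadian clock genes Arntl, Clock, Per1, Per2, Per3, Cry1, Cry2, Nr1d1, Nr1d2 and Dbp were described in single-cell libraries of the newborn mouse brain. They are 10 of the 27998 genes in the deposited tables, and all 10 were found by symbol and Ensembl ID. The set was chosen by a measured difference between the libraries, since Per1 was already known to be much higher in one of them, so every difference between the libraries in these genes is given as a description. One library came from WT mice and the other from STINGf/f;Nestin-Cre mice (cKO), in which Cre driven by the Nestin promoter deletes the innate immune adaptor STING in the neural lineage. Both were C57BL/6 and taken at postnatal day 0 from telencephalic tissue, and the study's methods describe cerebral cortex dissociated with papain. Cells were captured on the 10x Genomics platform. The study's text calls the control both WT and the floxed line without Cre, and the label WT is followed here.

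There was 1 library per group, and how many animals each held was not given in the sources used here. No difference between the libraries has a replicate check, and no test was made. Every interval below is a 95% interval and covers counting error only.

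In the circadian clock the transcription factors CLOCK and ARNTL (also called BMAL1) bind E-box sequences and switch on the Period and Cryptochrome genes, whose proteins return to the nucleus and repress their own activators. A further loop runs through the nuclear receptors REV-ERB alpha and beta, made by Nr1d1 and Nr1d2, which repress Arntl. Dbp is a clock output gene whose protein binds D-box sequences, and Per1 is also an early response gene of cAMP signalling and of glucocorticoid hormone. In adult tissues the level of many of these transcripts depends on the time of day. The time of collection was not given in the labels or the methods, so genotype and time of collection cannot be told apart.

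After filters 6601 WT and 5974 cKO cells were kept, with 55820331 and 55068000 UMIs, which are counted transcript molecules. The median cell held 6552 UMIs in WT and 7537 in cKO, and the median mitochondrial share was 6.08% and 6.69%. Xist gave 10 UMIs in WT and 71370 in cKO, and 4 Y-linked genes together gave 9771 and 6, so genotype and the sex of the animals cannot be told apart either. None of the clock genes lies on a sex chromosome. Tmem173, which encodes STING, gave 126 and 18 UMIs. The libraries shared 19 cell barcodes, 8 of them in kept cells. Cells were clustered without the clock genes and named from marker genes, and 24 of the 28 clusters were named and formed 11 classes. Of the 28 clusters, 9 came to at least 90% from 1 library and held 41.6% of the kept cells, all of them excitatory neurons, interneurons or intermediate progenitors.

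The promoters of Per1, Per3 and Cry1, which were higher in cKO and held a clock or cAMP motif, are shown with that of Dbp, which was lower. They are examples, and a link between motif and direction was not tested. They come from RefSeq on GRCm38.p6 and run from 250 bases before to 50 bases after an annotated start, on the strand of the gene, 5′ to 3′. Capitals mark the motif matches.
Per1, first start, chr11:69098699-69098998, plus strand: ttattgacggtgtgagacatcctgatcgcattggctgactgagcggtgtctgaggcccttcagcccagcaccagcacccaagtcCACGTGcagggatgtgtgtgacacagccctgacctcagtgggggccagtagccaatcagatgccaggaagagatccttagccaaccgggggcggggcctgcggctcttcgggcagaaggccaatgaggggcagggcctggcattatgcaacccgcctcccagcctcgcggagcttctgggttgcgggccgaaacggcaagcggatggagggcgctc
Per1, second start, chr11:69099902-69100201, plus strand: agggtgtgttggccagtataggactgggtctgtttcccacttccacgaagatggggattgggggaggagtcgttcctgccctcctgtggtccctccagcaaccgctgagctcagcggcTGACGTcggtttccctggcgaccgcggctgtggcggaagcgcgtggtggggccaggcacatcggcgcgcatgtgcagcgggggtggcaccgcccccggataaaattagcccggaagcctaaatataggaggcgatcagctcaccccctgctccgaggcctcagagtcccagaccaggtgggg
Per3, chr4:151044616-151044915, minus strand: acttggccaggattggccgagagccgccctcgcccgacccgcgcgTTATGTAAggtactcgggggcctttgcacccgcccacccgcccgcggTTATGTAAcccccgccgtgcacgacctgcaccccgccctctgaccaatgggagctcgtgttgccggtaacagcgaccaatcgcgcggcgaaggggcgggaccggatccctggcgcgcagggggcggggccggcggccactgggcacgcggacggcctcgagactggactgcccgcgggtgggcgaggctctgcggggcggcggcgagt
Cry1, chr10:85185005-85185304, minus strand: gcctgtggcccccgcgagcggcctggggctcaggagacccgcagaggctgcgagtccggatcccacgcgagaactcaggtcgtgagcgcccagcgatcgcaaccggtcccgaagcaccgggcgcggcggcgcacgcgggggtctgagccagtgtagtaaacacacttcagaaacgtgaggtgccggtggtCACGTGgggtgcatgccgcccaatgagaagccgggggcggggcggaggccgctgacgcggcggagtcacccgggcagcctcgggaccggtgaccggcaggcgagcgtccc
Dbp, chr7:45704997-45705296, plus strand: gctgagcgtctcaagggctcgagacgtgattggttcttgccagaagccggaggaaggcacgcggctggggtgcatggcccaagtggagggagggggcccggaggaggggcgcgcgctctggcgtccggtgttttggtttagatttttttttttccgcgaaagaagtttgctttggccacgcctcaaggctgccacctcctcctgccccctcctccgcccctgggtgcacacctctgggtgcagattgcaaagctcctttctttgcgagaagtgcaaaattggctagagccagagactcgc

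The table held 13 promoters of 9 members. Both strands were searched for the E-box CACGTG, the D-boxes TTATGTAA and TTACGTAA, the REV-ERB and ROR elements TAGGTCA and TGGGTCA, the cAMP response element TGACGTCA with its core TGACGT, which lies inside it, and the glucocorticoid response element. The capitals are an E-box 166 bases before the first Per1 start and another 60 bases before the Cry1 start, a motif held by 7.15% of the 32851 promoters in the table. The second Per1 promoter holds the cAMP core 132 bases before its start, as do 7.51% of all promoters. Per3 holds the D-box TTATGTAA 205 and 158 bases before its start, and 0.938% of all promoters hold it. Of the members not shown, Arntl holds TAGGTCA 31 bases after its second start, as do 2.61% of promoters. The windows of Clock, Cry2, Nr1d1 and Nr1d2, which were also higher in cKO, held none of the motifs searched. None of the 13 promoters searched, which include none of Per2, held TTACGTAA (0.119% of all promoters), TGGGTCA (3.98%), the full cAMP element (1.79%) or the glucocorticoid response element (0.475%), and the Dbp window held none of the motifs searched. A match describes letters in a window and is no measured binding site.

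Over all kept cells the clock genes were higher in the cKO library, except Dbp. Levels are given as CPM, the UMIs of a gene scaled to a total of 1000000 per library. Together the 10 genes gave 7814 UMIs in WT, or 139.98 CPM, and 15453 in cKO, or 280.6 CPM. Of the 10 genes 9 were higher in cKO, 5 of them at least 2-fold, and 0 were at least 2-fold lower. Among the 14681 genes with at least 50 UMIs in the libraries together, which include all 10 clock genes, 2.67% were at least 2-fold higher in cKO and 19.6% at least 2-fold lower. With TMM factors in place of total UMIs these shares were 5.91% and 13.2%, and 8 clock genes were past 2-fold. The median log2 ratio of cKO over WT was 0.98 for the 10 clock genes and −0.25 for all genes tested. The share of all genes higher by any amount is not given here. Ordered by this ratio from the highest, Arntl, the lowest of the 9, stood at place 1167 of the 14681 genes. Whether the sex difference or the time of collection had a part in these values was not tested.

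**Figure D1:**
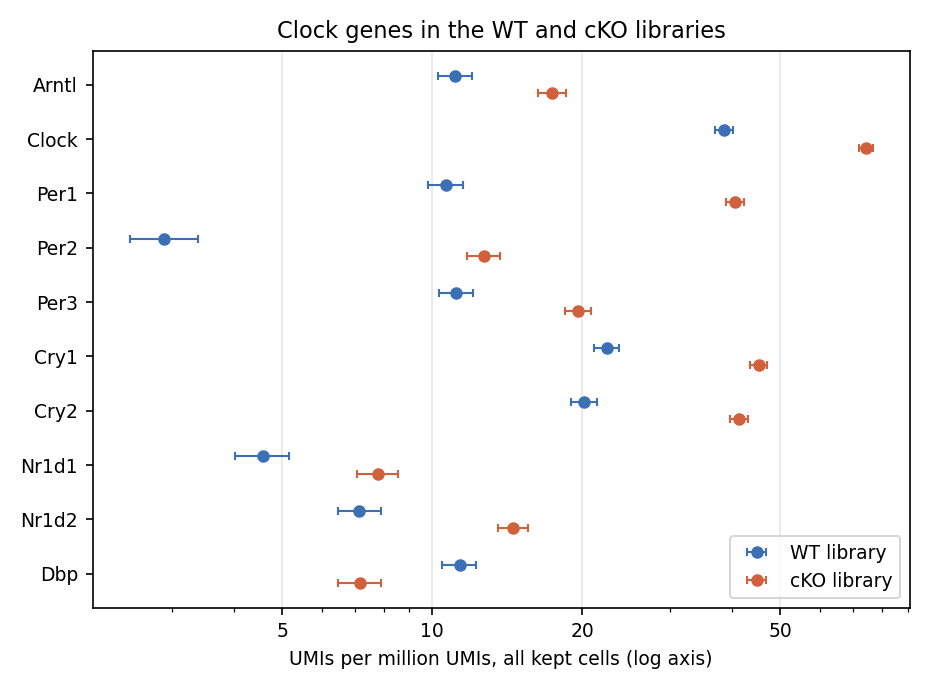
CPM (log axis) of the 10 clock genes over all kept cells, in the WT library (blue) and the cKO library (orange), 1 library each, with 95% Poisson intervals for counting error. The cKO point lies to the right of the WT point for 9 genes, with Per1 at 10.6 and 40.55, and to the left for Dbp, at 11.4 and 7.15.

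The activators were higher in cKO by less than 2-fold. Clock, the partner of ARNTL and the most abundant gene of the set, was counted 2150 times in WT and 4090 times in cKO. This is 38.5 and 74.3 CPM, a log2 ratio of 0.95. Arntl was counted 621 and 958 times, at 11.1 and 17.4 CPM, a log2 ratio of 0.65. UMIs count molecules tagged at 1 end and were not divided by transcript length, but capture and mapping can still differ between genes. On this scale WT cells held 3.46 Clock UMIs for each Arntl UMI (3.16 to 3.79). The cKO value was 4.27 (3.98 to 4.59).

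The Period genes Per1 and Per2 had the highest ratios of the set. Per1 was counted 594 times in WT and 2233 times in cKO. The level of 10.6 CPM (9.80 to 11.5) in WT stood against 40.55 (38.9 to 42.3) in cKO. The log2 ratio was 1.93 (1.80 to 2.06), or 3.81-fold, and in cells with at least 1000 genes and at most 5% mitochondrial UMIs it was 2.58. Ordered by this ratio from the highest, Per2 stood at place 59 and Per1 at place 68 of the 14681 genes. Per2 was the scarcest member in WT, with 162 UMIs against 699 in cKO, at 2.90 and 12.7 CPM, a log2 ratio of 2.13. Per3 had 623 and 1083 UMIs, at 11.2 and 19.7 CPM, and a lower log2 ratio of 0.82. Per1 and Per3 were thus about level in the WT library, at 0.953 Per1 UMIs for each Per3 UMI (0.851 to 1.07), and cKO had 2.06 (1.92 to 2.22).

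The Cryptochromes, which repress CLOCK and ARNTL together with the Period proteins, were each close to 2-fold higher. Cry1 was counted 1250 and 2491 times, at 22.4 and 45.2 CPM, a log2 ratio of 1.01. Cry2 was counted 1126 and 2277 times, at 20.2 and 41.3 CPM, a log2 ratio of 1.04, and the number of Cry1 UMIs for each Cry2 UMI was 1.11 in WT and 1.09 in cKO. Of the REV-ERB genes, Nr1d1 gave 255 and 428 UMIs, at 4.57 and 7.77 CPM, and Nr1d2 399 and 800 UMIs, at 7.15 and 14.5 CPM. Their log2 ratios were 0.77 and 1.02. Cry1, Nr1d2 and Cry2 thus lie just inside the 2-fold line and Clock just outside it. Without the 9 clusters that came mostly from 1 library, an alternative added after seeing the data, 2 members were past 2-fold, Per1 at 1.98 and Per2 at 2.07, beside 2.64% of all genes higher and 19.4% lower in these cells. Cry1 was then at 0.98, Cry2 at 0.99 and Nr1d2 at 0.75.

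Dbp, the D-box output gene, was lower in cKO. It was counted 634 times in WT and 394 times in cKO, which gave 11.4 CPM (10.5 to 12.3) in the first library and 7.15 (6.47 to 7.90) in the second. The log2 ratio was −0.67 (−0.85 to −0.48). Relative to the median of all genes this was −0.42, and in cells with at least 1000 genes and at most 5% mitochondrial UMIs the log2 ratio was −0.06. Dbp shares 539 exon bases with Sphk2 on the opposite strand, which had 765 and 415 UMIs and a log2 ratio of −0.86. Nr1d1 shares 263 exon bases with Thra on the opposite strand, which had 45052 and 57732 UMIs and a log2 ratio of 0.38. Whether counting used strand was not given in the sources used here, so the counts of Dbp and Nr1d1 are uncertain to that extent. Cry2 shares 295 exon bases with D930015M05Rik and Arntl 33 with Gm45355, both opposite, and Nr1d2 has a stretch of 1385 bases that is 96.1% identical to AC170187.1.

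In the GENCODE annotation of GRCm38 all are protein-coding genes. Per1 spans chr11:69095217-69109960, Nr1d1 chr11:98767932-98775333, Per2 chr1:91415982-91459324, Per3 chr4:151003652-151044665 and Cry1 chr10:85131700-85185064. Cry2 spans chr2:92403646-92434043, Nr1d2 chr14:18204054-18239127, Clock chr5:76209868-76304792, Dbp chr7:45705088-45710203 and Arntl chr7:113207465-113314126. Per1, Dbp and Arntl lie on the plus strand and the others on the minus strand.

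The same genes were followed within the 11 cell classes, called -like since only marker genes define them. In excitatory neuron-like, interneuron-like and intermediate progenitor-like cells, different clusters held most of each library's cells. A ratio is given where a gene had at least 4 UMIs in each library and 10 in all. Per1 was higher in cKO in 11 of 11 classes, each with an interval above 0, and at least 2-fold higher in 10. Among single clusters with cells of both libraries the interval lay above 0 in 15 of 17. The exceptions were the interneuron-like clusters 9, at −0.10 (−0.91 to 0.75), and 17, at 0.89 (−0.36 to 2.28), and the excitatory clusters 16 and 21 were below 2-fold, at 0.70 (0.12 to 1.30) and 0.86 (0.04 to 1.75). With the stricter filter of 1000 genes and 5% mitochondrial UMIs, Per1 in striatal neuron-like cells was at 0.34 (−1.32 to 2.11) and in Cajal-Retzius-like cells at 0.68 (−0.68 to 2.14), so the call was lost in both. Cry2 was higher with an interval above 0 in 10 of the 10 classes with a ratio, Clock and Cry1 in 9 of 11, Nr1d2 in 7 of 11 and Per2 in 7 of 8. Per3 and Nr1d1 were so in 6 of 9 and Arntl in 6 of 10. Dbp was higher in 1 class and lower in 4, and 5 had an interval that included 0. The share of all genes with an interval above or below 0, by class or by cluster, is not given here.

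**Figure D2:**
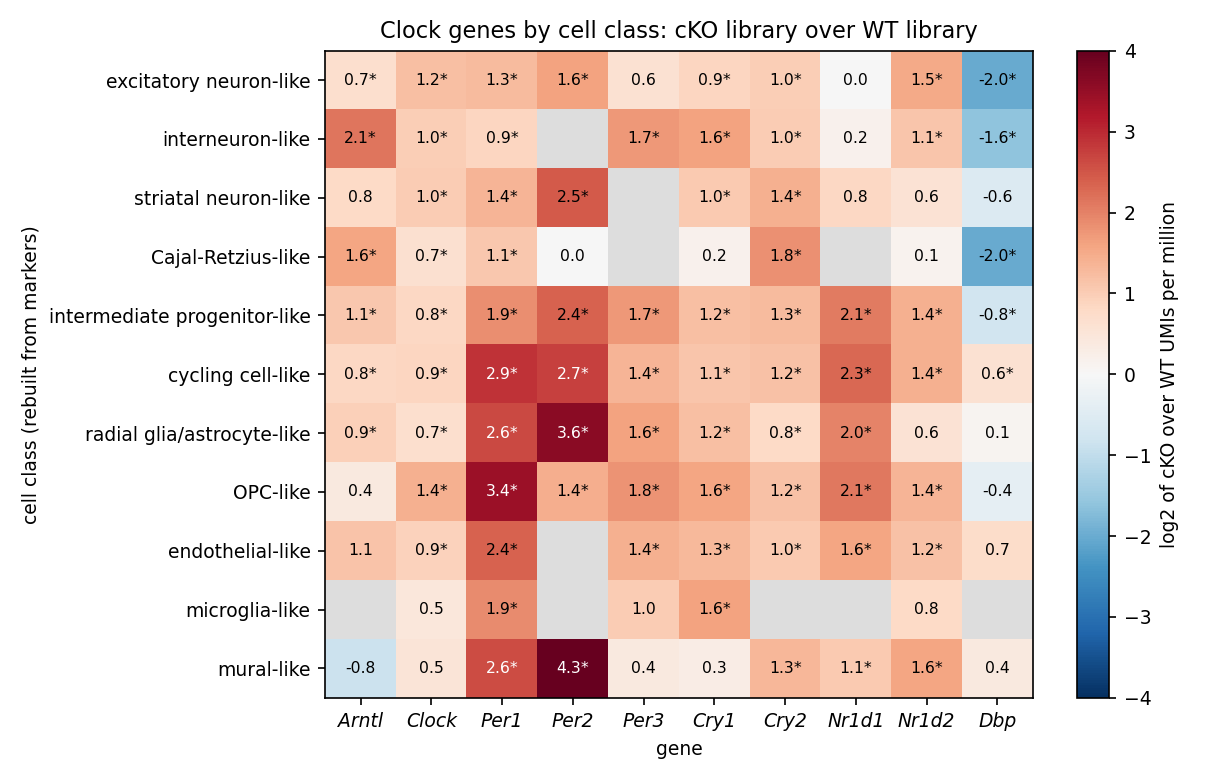
Log2 ratio of CPM, cKO over WT, for the 10 clock genes (columns) in 11 cell classes (rows), red for higher and blue for lower in cKO, grey where UMIs were too few, with a star where the 95% counting interval excludes 0. The Per1 column is red throughout, from 0.87 in interneuron-like to 3.41 in OPC-like cells, and Dbp is at −2.03 in excitatory neuron-like cells.

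Per1 was highest in radial glia/astrocyte-like cells in both libraries. Its WT level there was 27.0 CPM, followed by 21.5 in endothelial-like and 17.7 in mural-like cells, and the lowest was 6.50 in intermediate progenitor-like cells. Neighbours in the WT order had overlapping intervals throughout, so the WT order is not resolved from class to class. In cKO, radial glia/astrocyte-like cells held 168.9 CPM (146.2 to 194.0) and stood apart from the next named class. Endothelial-like cells followed at 111.3, mural-like at 107.3, OPC-like at 89.4 and cycling cells at 77.7, and the lowest were excitatory neuron-like cells at 19.1 and interneuron-like cells at 17.8. The cycling class was made of cluster 22, with 197 of its 279 cKO UMIs and 164.5 CPM (142.3 to 189.1), an interval that overlaps that of radial glia/astrocyte-like cells, and cluster 10, at 34.2 CPM.

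The Per1 ratios of the 4 neuronal classes were below those of the other classes, though several intervals overlap, and the order did not hold with the stricter filter, where interneuron-like cells were at 1.80 and intermediate progenitor-like cells at 1.66. Excitatory neuron-like cells, the largest class, held 179 Per1 UMIs in WT and 507 in cKO, a log2 ratio of 1.26 (1.01 to 1.51). Interneuron-like cells held 45 and 87 UMIs, a log2 ratio of 0.87 (0.33 to 1.42), and striatal neuron-like and Cajal-Retzius-like cells were at 1.35 and 1.09. OPC-like cells, precursors of oligodendrocytes, held 13 and 80 UMIs, a log2 ratio of 3.41 (2.55 to 4.38). Cycling cells were at 2.88, radial glia/astrocyte-like at 2.65, mural-like at 2.6, endothelial-like at 2.37 and intermediate progenitor-like at 1.87. Microglia-like cells held 9 and 23 UMIs, a log2 ratio of 1.88 (0.71 to 3.17). The interval of excitatory neurons lies below those of the OPC, cycling, radial glia, mural and endothelial classes, but the difference between classes was not tested.

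Cluster 5 was left unnamed because its leading genes, Aldoc, Mt3 and Clu, point to another class than its best marker list. It held similar numbers of both libraries, 344 WT and 316 cKO cells, with 50 and 499 Per1 UMIs at 16.7 and 163.6 CPM, a log2 ratio of 3.29 (2.87 to 3.74). Its Dbp count was 119 and 120. Over the 20 clusters with at least 20 cells of each library, Per1 had a ratio in 17 and was higher with an interval above 0 in 15. The lowest was an interneuron-like cluster led by Maf, Lhx6 and Nxph1, at −0.10 (−0.91 to 0.75) with 20 and 39 UMIs.

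Summed over classes, Dbp was lower in cKO in 3 neuronal classes and in intermediate progenitors, but of the 12 clusters shared by the libraries in which it had a ratio, only the Cajal-Retzius-like cluster had an interval below 0. Excitatory cluster 16 had too few cKO UMIs for a ratio. Its Dbp counts were 24 and 3, at 5.98 CPM (3.83 to 8.89) in WT and 0.98 (0.20 to 2.87) in cKO. In excitatory cluster 21 Dbp was at −1.37 (−2.84 to 0.01). In excitatory neuron-like cells it was counted 158 times in WT and 46 times in cKO, at 7.06 and 1.73 CPM, a log2 ratio of −2.03 (−2.53 to −1.54). In Cajal-Retzius-like cells, the named class with the highest WT level, it had 36 and 12 UMIs, at 36.2 and 9.01 CPM, a log2 ratio of −2.01 (−3.08 to −1.03). Interneuron-like and intermediate progenitor-like cells were at −1.62 (−2.82 to −0.54) and −0.75 (−1.42 to −0.11). In radial glia/astrocyte-like cells the level was 29.8 and 32.2 CPM, a log2 ratio of 0.11 (−0.50 to 0.72). The WT interval there, 22.9 to 38.0 CPM, overlaps the 25.3 to 50.1 of Cajal-Retzius-like cells. The unnamed cluster 5 had a WT Dbp level of 39.8 CPM. Cycling cells had 50 and 58 UMIs and a log2 ratio of 0.62 (0.05 to 1.19), and at the other clustering resolution of 2 this was 0.33 (−0.21 to 0.87), so the call was lost. Sphk2, on the opposite strand, was at −1.16 in excitatory neuron-like, −0.67 in interneuron-like and −0.38 in cycling cells, and its part in the Dbp counts was not tested.

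**Figure D3:**
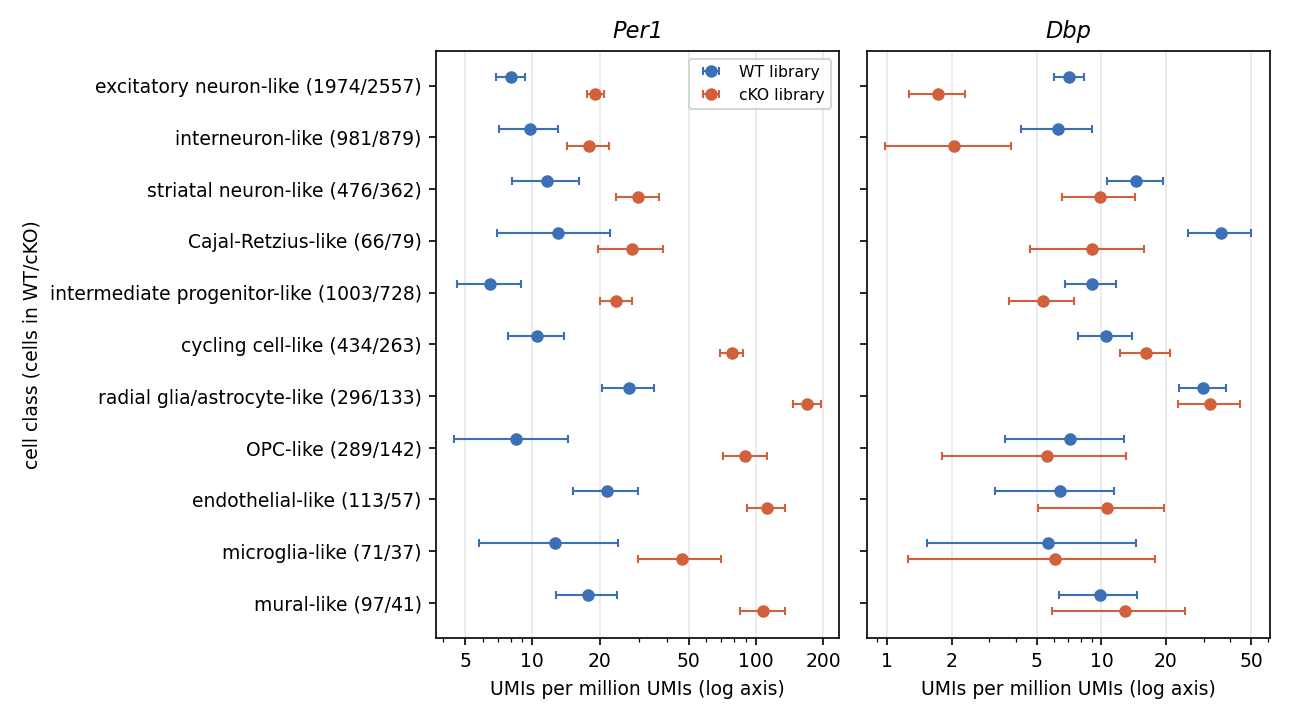
CPM (log axis) of Per1 (left) and Dbp (right) in the 11 cell classes, WT in blue and cKO in orange, with 95% Poisson intervals and the number of cells of each library in brackets. Per1 is higher in cKO in each class, from 27.0 to 168.9 in radial glia/astrocyte-like cells, and Dbp is lower in excitatory neuron-like cells, at 7.06 and 1.73.

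Among the named classes, Per3 and Arntl were most abundant in radial glia/astrocyte-like cells, apart from the next class in both libraries. Per3 was at 52.6 CPM in WT and 162.1 in cKO there, a log2 ratio of 1.62, and at 1.21 and 1.85 in excitatory neuron-like cells. Arntl was at 41.9 and 80.6 CPM, and the next class, cycling cells, at 13.7 and 24.5. The unnamed cluster 5 was at 68.9 and 124.3 CPM for Per3 and at 44.5 and 64.6 for Arntl. Per1 outnumbered Per3 in excitatory neuron-like cells, with 6.63 Per1 UMIs for each Per3 UMI in WT (4.41 to 10.3). In radial glia/astrocyte-like cells the WT library had 0.513 (0.367 to 0.711), and the cKO library had 1.04 (0.850 to 1.28).

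Per2 was scarce in most WT classes. In excitatory neuron-like cells it had 63 and 227 UMIs, at 2.82 and 8.56 CPM, a log2 ratio of 1.60, and in radial glia/astrocyte-like cells 6 and 40 UMIs, at 2.79 and 33.9 CPM, a log2 ratio of 3.60. The highest ratio was in mural-like cells, at 4.32 (2.77 to 6.31), with 4 and 23 UMIs. Interneuron-like cells held 3 and 61 Per2 UMIs and endothelial-like cells 2 and 21. Only Cajal-Retzius-like cells, at 6 and 8 UMIs, and microglia-like cells, at 1 and 0, did not have a higher Per2 level in cKO.

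Cry1, Cry2 and Clock had smaller ranges of log2 ratio over the classes than Per1. Clock ranged in WT from 27.8 CPM in excitatory neuron-like to 71.2 in radial glia/astrocyte-like cells, and its log2 ratio from 0.45 in microglia-like to 1.43 in OPC-like cells. Cry1 had its lowest levels in intermediate progenitor-like cells, at 9.16 and 21.0 CPM, and was at 26.9 and 48.5 in excitatory neuron-like cells. Its log2 ratio ran from 0.16 in Cajal-Retzius-like to 1.62 in microglia-like cells. Cry2 ran from 0.79 in radial glia/astrocyte-like cells, at 34.4 and 59.4 CPM, to 1.82 in Cajal-Retzius-like cells, at 14.1 and 49.6 CPM. In microglia-like cells Cry2 had 0 UMIs in WT, which allows up to 4.23 CPM by the one-sided limit of 3 counts, and 8 in cKO.

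The REV-ERB genes were compared in excitatory neuron-like and radial glia/astrocyte-like cells, where they differed from each other. In excitatory neuron-like cells Nr1d1 was nearly level, with 73 and 86 UMIs and a log2 ratio of −0.01 (−0.48 to 0.46), while Nr1d2 had 78 and 263 UMIs and a log2 ratio of 1.51 (1.14 to 1.89). In clusters 16 and 21, excitatory clusters with cells of both libraries, Nr1d2 was at 0.56 (−0.49 to 1.63) and 0.79 (−0.20 to 1.88), so the call was lost there. In radial glia/astrocyte-like cells Nr1d1 had 26 and 56 UMIs and a log2 ratio of 1.97 (1.28 to 2.70), while Nr1d2 had 38 and 31 and a log2 ratio of 0.57 (−0.16 to 1.30). There were 3.06 Nr1d2 UMIs for each Nr1d1 UMI (2.39 to 3.95) in excitatory neuron-like cells of cKO and 0.554 (0.345 to 0.873) in radial glia/astrocyte-like cells. The matching WT values were 1.07 and 1.46, with intervals that overlap. Interneuron-like cells were on the side of the excitatory neuron-like cells, with 7.67 (3.27 to 21.97) in cKO from 46 and 6 UMIs, and a log2 ratio of 0.18 (−1.80 to 2.23) for Nr1d1 and 1.12 (0.33 to 1.95) for Nr1d2. In interneuron-like clusters 9 and 17, with cells of both libraries, Nr1d2 had 2 and 14 and 3 and 10 UMIs, too few for a ratio. OPC-like cells of cKO held 2.1 Nr1d2 UMIs for each Nr1d1 UMI (0.947 to 4.99) and the log2 ratios in striatal neuron-like cells were 0.84 for Nr1d1 and 0.57 for Nr1d2. The unnamed cluster 5, led by Aldoc, Mt3 and Clu, had log2 ratios of 0.92 (0.42 to 1.42) for Nr1d1 and 0.94 (0.44 to 1.46) for Nr1d2. The REV-ERB genes thus did not differ from each other there. The difference between classes was not tested, and the overlap of Nr1d1 with the far more abundant Thra limits all these values.

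Per class, the clock genes with at least 50 UMIs were counted beside the share of all such genes at least 2-fold higher in cKO. The number at least 2-fold higher was 4 of 10 in excitatory neurons, beside 4.88% of all genes, and 1 was at least 2-fold lower, beside 17.6%. In interneurons it was 4 of 6, beside 5.26% of genes higher, in striatal neurons 3 of 6, beside 4.85%, and in Cajal-Retzius cells 2 of 4, beside 2.8%. In interneurons and Cajal-Retzius cells 0 of the counted clock genes were at least 2-fold lower, beside 11.9% and 5.02% of all genes, and Dbp, more than 2-fold lower in both, was not counted because it had under 50 UMIs there. In intermediate progenitors it was 8 of 10, beside 4.07%, and in cycling cells 7 of 10, beside 3.48%. In radial glia/astrocyte-like cells it was 4 of 9, beside 3.65%, in OPCs 5 of 5, beside 4.19%, in endothelial cells 5 of 6, beside 6.65%, and in mural cells 4 of 7, beside 5.59%. A gene reaches 50 UMIs more easily where it is high, and in microglia-like cells no clock gene did. In intermediate progenitor cluster 14, which had cells of both libraries, Per1 was at a log2 ratio of 1.56, Cry1 at 1.63 and Cry2 at 1.13. Clock was at 0.87 there, Per2 at 0.80, Nr1d2 at 0.68, Arntl at 0.66, Nr1d1 at −0.15 and Dbp at −1.29. Per3 had too few UMIs there for a ratio, and the share of all genes in cluster 14 is not given here.

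To remove the difference in depth, each cell was thinned to 1000 UMIs, which left out 137 WT and 116 cKO cells with fewer. A Per1 UMI was then found in 58 of 6464 WT cells, or 0.897% (0.682 to 1.16), and in 236 of 5858 cKO cells, or 4.03% (3.54 to 4.56). Without thinning these shares were 7.71% and 23.6%. Per2 was found in 0.294% and 1.37% of cells, Cry1 in 1.89% and 4.61%, Cry2 in 2.03% and 4.47% and Clock in 4.44% and 8.14%. The intervals of the libraries overlapped for Arntl, Nr1d1 and Dbp, the last at 1.13% (0.886 to 1.42) and 0.717% (0.517 to 0.968). In radial glia/astrocyte-like cells the Per1 share was 3.04% and 17.3%, and in excitatory neuron-like cells 0.573% and 1.52%. Without thinning, 83.4% of the radial glia/astrocyte-like cells of WT and 30.8% of cKO held no Per1 UMI, and 0.338% and 16.5% held 3 or more.

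Since no class is known to lack these genes, free RNA was gauged with genes of other cells. The neuronal gene Neurod6 was found, after thinning, in 3.04% and 4.51% of radial glia/astrocyte-like cells and in 1 of 113 WT and 1 of 55 cKO endothelial-like cells, where Per1 was found in 1 and 6. In WT the share of cells with Neurod6 was no lower than that with Per1 in radial glia/astrocyte-like cells, where both were in 9 of 296, in OPC-like cells, at 4.24% and 0.707%, and in interneuron-like cells, at 4.07% and 0.835%. Over all kept WT cells Neurod6 was found in 22.2% and Per1 in 0.897%, so a Neurod6 share sets no scale for free Per1 RNA. The part of free RNA in the Per1 shares was not tested. In cKO, Neurod6 and Per1 were in 3.31% and 2.6% of interneuron-like, 2.11% and 10.6% of OPC-like and 4.51% and 17.3% of radial glia/astrocyte-like cells. The endothelial gene Cldn5 was found in 66.0% of WT and 31.7% of cKO mural-like cells, and in 0.0521% of excitatory neuron-like and 0.338% of radial glia/astrocyte-like cells of WT. The median mural-like cell held 20219 UMIs in WT and 7740 in cKO. The part of endothelial RNA in the mural values of the clock genes was not tested.

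**Figure D4:**
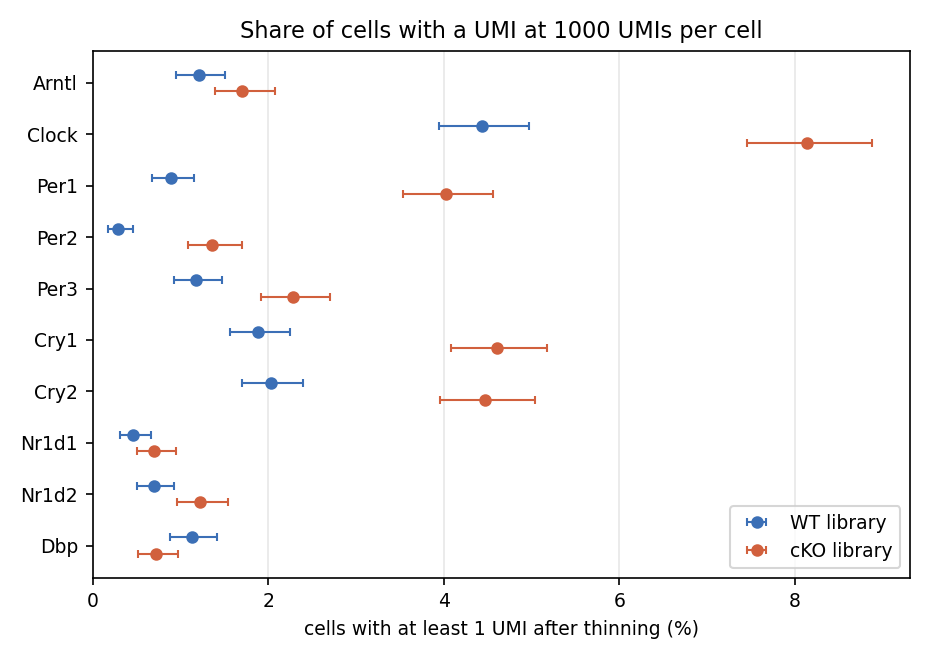
Share of cells (%) with at least 1 UMI of each clock gene after each cell was thinned to 1000 UMIs, WT in blue (6464 cells) and cKO in orange (5858 cells), with exact 95% binomial intervals. Per1 lies at 0.897% and 4.03%, and Dbp has the lower share in cKO, with overlapping intervals.

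Per1 was also read by cell depth and quality. In kept cells with 12000 UMIs or more it was at 12.4 CPM in WT and 38.2 in cKO, and in kept cells under 3000 UMIs at 13.3 and 29.2. Among all barcodes with at least 500 genes it was at 14.2 and 86.1 CPM at 2.5% to 5% mitochondrial UMIs and at 9.46 and 31.6 at 5% to 10%. Above 25%, a range left out of the kept cells, it was at 17.9 (13.7 to 23.1) and 19.8 (15.4 to 25.3), so the libraries overlapped in the barcodes with the most mitochondrial RNA.

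In cKO cells with a thinned Per1 UMI, Per3, Arntl and the activity-induced gene Fos were met more often than in the remaining cells. Per3 was found in 24 of 236 such cells, or 10.2%, and in 1.96% of the other 5622, and Arntl in 5.51% and 1.55%. Fos, named after its values were seen, was found in 31.4% and 10.7%. The other signal-responsive genes looked up were closer to level, with Junb in 6.78% and 4.73%, Cdkn1a in 2.97% and 1.71%, Sgk1 in 3.39% and 3.68%, Fkbp5 in 1.69% and 2.24% and Arrdc4 in 14.0% and 15.4%. In WT, with 58 Per1 cells, Fos was found in 20.7% and 14.0%, and Per3 and Arntl in 1 cell each. In cKO, Per2 was found in 1.27% and 1.37%, Cry2 in 4.66% and 4.46% and Nr1d2 in 1.27% and 1.23%. Clock was found there in 13.1% and 7.93% and Cry1 in 6.36% and 4.54%. Dbp was in 2.12% and 0.658% and Nr1d1 in 1.69% and 0.658%, from 5 and 4 Per1 cells. These cells are a mix of classes, and the part of class in these shares was not tested.

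The genes with a pattern most like Per1 were sought over the 22 sums of class by library, in log2(CPM + 1), among 12492 genes with at least 200 UMIs. The sums share 2 libraries and differ in depth, and the correlations are descriptions. Among the 5 genes with the highest Pearson r were Srsf5 (0.91), Nr1d2 (0.87), Taf8 (0.87) and Rab22a (0.87). Each library was also centred on its own mean, which takes out the difference in mean but not in spread over the classes. The 5 genes were then Stard4 (0.89), Nr1d1 (0.89), D10Jhu81e (0.88), Dtd2 (0.87) and Etfdh (0.86). Per3 was then at 0.83, Nr1d2 at 0.80 and Dbp at 0.66, while Clock was at 0.18 and Cry2 at 0.03. The REV-ERB gene among the 5 nearest was Nr1d2 in the first list and Nr1d1 in the second. The first list holds the library difference by which the set was chosen, so genes higher in cKO are favoured in it.

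Beyond the set, 20 other clock genes were looked up, and 19 had at least 50 UMIs. Of these 3 were at least 2-fold higher in cKO, beside 2.67% of all genes, and 2 at least 2-fold lower, beside 19.6%, with a median log2 ratio of 0.21 beside −0.25. Ciart, a repressor of CLOCK and ARNTL, had 222 and 811 UMIs, at 3.98 and 14.7 CPM, a log2 ratio of 1.89 (1.67 to 2.11), close to that of Per1. Tef and Hlf, of the same D-box-binding family as Dbp, were higher where Dbp was lower. Tef had 1785 and 3685 UMIs and Hlf 390 and 858, log2 ratios of 1.07 and 1.16, and in excitatory neuron-like cells they were at 1.21 and 1.35. Npas2, which can stand in for CLOCK, had 157 and 62 UMIs, a log2 ratio of −1.32. Arntl2, a paralogue of Arntl, had 77 and 12 UMIs, a log2 ratio of −2.66.

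Per1 also answers to signals other than the clock, so genes of those signals were set beside it. Of 13 genes induced by cAMP or neuronal activity, 0 were at least 2-fold higher, beside 2.67% of all genes, and 1 at least 2-fold lower, beside 19.6%, with a median log2 ratio of −0.25 beside −0.25. The largest in size were Crem at −1.11, Nr4a1 at −0.58 and Ier2 at −0.47. Of 14 glucocorticoid-responsive genes, 0 were past 2-fold in either direction, beside the same shares, with a median of 0.25 beside −0.25. The largest in size were Arrdc2 at −0.83, Hif3a at 0.72 and Errfi1 at 0.68.

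Within classes the glucocorticoid-responsive list had its highest median in endothelial-like cells and its lowest in excitatory neuron-like cells. Of the listed genes with at least 50 UMIs, a minimum that genes high in cKO reach more easily, 6 of 6 were at least 2-fold higher in endothelial-like cells, beside 6.65% of all genes, with a median log2 ratio of 2.43. In mural-like cells 5 of 8 were, beside 5.59%, with a median of 1.64, and in radial glia/astrocyte-like cells 5 of 7, beside 3.65%, with a median of 1.37. In OPC-like cells 3 of 6 were, beside 4.19%, with a median of 0.96, in intermediate progenitor-like cells 4 of 9, beside 4.07%, with a median of 0.93, and in cycling cells 3 of 9, beside 3.48%, with a median of 0.89. In microglia-like cells 2 of 4 were, beside 4.74%, and 1 was at least 2-fold lower, beside 7.01%, with a median of 0.67. Interneuron-like, striatal neuron-like and Cajal-Retzius-like cells had medians of 0.47, 0.09 and 0.04. In excitatory neuron-like cells 0 of 11 were at least 2-fold higher, beside 4.88% of all genes, and 2 at least 2-fold lower, beside 17.6%. The median there was −0.09, beside −0.18 for all genes, and no difference between classes was tested. Klf9, a zinc-finger factor, had 42 and 177 UMIs in endothelial-like cells, a log2 ratio of 2.94, and 655 and 582 in excitatory neuron-like cells, a log2 ratio of −0.42. Sgk1, a kinase, had 263 and 551 UMIs in endothelial-like cells, a log2 ratio of 1.93. Klf9 and Sgk1 were named after their values were seen. The cAMP and activity list had medians from −0.55 in cycling cells, where 2 of 11 were at least 2-fold lower, beside 8.54% of all genes, and 0 higher, beside 3.48%, to 0.39 in endothelial-like cells, where 2 of 11 were higher, beside 6.65%, and 1 lower, beside 12.1%. By cluster its median reached from −0.81 in cycling cluster 10, leaving out clusters with 1 listed gene, to 1.00 in excitatory cluster 21, where that of all genes was −0.07. Cluster 5, which has no class name and a Per1 log2 ratio of 3.29, had a median of 0.27 for the glucocorticoid list, beside −0.08 for all genes. Cluster 15, also unnamed and with a Per1 log2 ratio of 2.72, had a median of 1.24, beside 0.03. The part of glucocorticoid or cAMP signalling in the Per1 values was not tested.

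**Figure D5:**
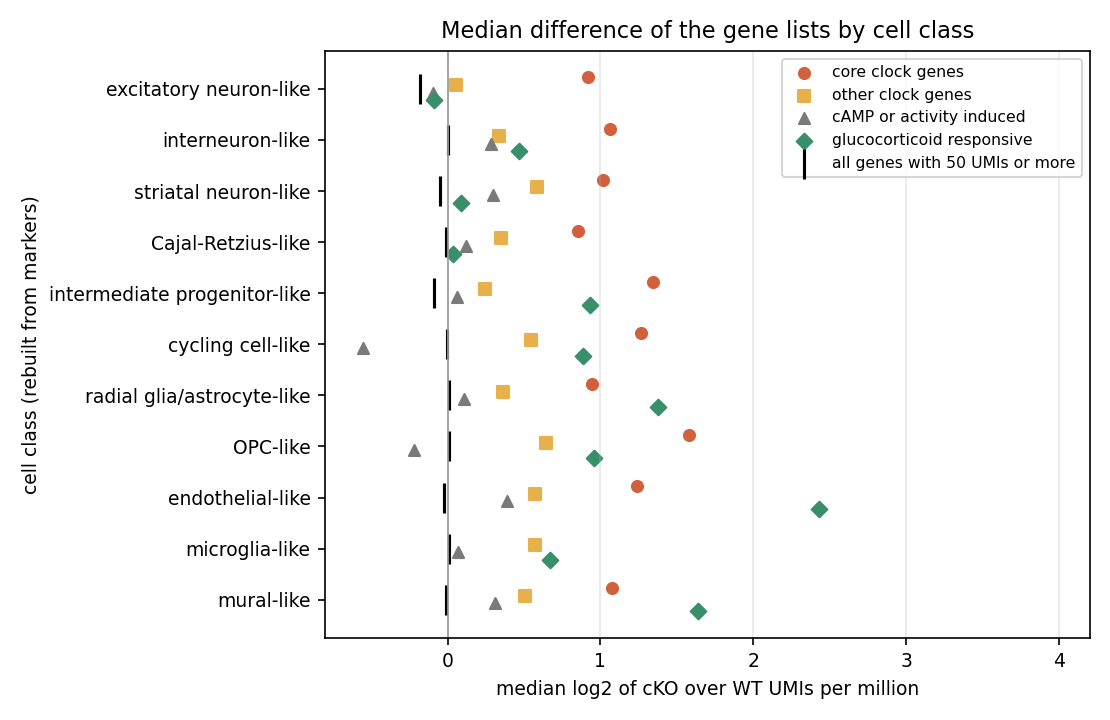
Median log2 ratio of CPM, cKO over WT, in the 11 cell classes for the core clock genes, the other clock genes, the cAMP or activity induced list and the glucocorticoid-responsive list, each over its genes with at least 50 UMIs in that class, with the median of all such genes as a black bar. The glucocorticoid-responsive list reaches 2.43 in endothelial-like cells and lies at −0.09 in excitatory neurons, where the clock genes lie at 0.92.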

How the data were processed

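Single cells of 1 WT and 1 cKO sample at postnatal day 0 were profiled by 10x Genomics RNA sequencing. The authors deposited raw UMI counts per gene and barcode (10715 WT and 9198 cKO barcodes), which were used as deposited. The submitters' processing notes name Cell Ranger 2, STAR, Seurat and mm9, and the matrix headers name Cell Ranger 3.0.1. A combined matrix, dense copies of the counts and a table of the authors' cluster fold changes and p-values were not used. The members and lists were chosen with earlier results of these data known.

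Barcodes with at least 500 genes and at most 10% mitochondrial UMIs were kept. Scrublet in scanpy 1.11.5 marked 2.44% of WT and 1.74% of cKO cells as doublets, which were left out, at an expected rate of 6% that was set after the default rate gave no working threshold in cKO. Clustering used 2000 variable genes, 30 components, 15 neighbours and Leiden resolution 1 (leidenalg 0.10.2), without the clock and listed genes and mitochondrial, ribosomal, haemoglobin and sex-linked genes. Clusters with under 3 detected markers, or led by markers of a different class, stayed unnamed.

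UMIs were summed per class and library. CPM has exact Poisson intervals, ratios exact conditional binomial intervals and shares Clopper-Pearson intervals. For counts and medians over lists 0.5 UMI was added. The genes named were the 10 members, other clock genes past 2-fold, the 3 largest ratios of each companion list and the 5 genes most like Per1, with exceptions stated, and 1 of the genes most like Per1 is not reported here. edgeR 4.0.16 gave TMM factors for scaling alone. Overlaps and coordinates came from GENCODE M21, in which all 10 IDs matched, and copies from BLAST 2.17.0 (95% identity over 100 bases). Calculations were tested on simulated data. The alternatives tried are given at the end.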

Additional observations from a re-analysis of the deposited data

Results flagged for a closer look

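Dbp differed in direction between cell classes. Its log2 ratio of cKO over WT was −2.03 in excitatory neuron-like cells (158 and 46 UMIs) and 0.62 in cycling cells (50 and 58 UMIs), each with a counting interval on 1 side of 0. In cycling cells the interval included 0 at Leiden resolution 0.5 (0.42) and 2 (0.33), with each library clustered alone (0.42), with classes from marker scores (0.49) and with the stricter cell filter (0.46). With 1 library per group the difference between these classes was not tested.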

How the results depend on the processing

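No paired analysis was possible because there was 1 library per group, and for the same reason no replicate could be left out. The Per1 log2 ratio of 1.93 was 1.76 with no filter on cells or doublets, 2.58 with at least 1000 genes and at most 5% mitochondrial UMIs, 2.19 with TMM factors, 2.21 with median-of-ratios size factors and 2.26 with cells thinned to 1000 UMIs, and under the other 5 alternatives it lay within its counting interval. The count of 5 clock genes past 2-fold was 8 with TMM factors, beside 5.91% of all genes higher and 13.2% lower, 8 with median-of-ratios size factors, beside 6.19% and 12.9%, 10 at a threshold of 1.5-fold, which counts Dbp as lower, beside 9.39% and 34%, and 2 without the clusters mostly of 1 library, the alternative added after seeing the data, beside 2.64% and 19.4%. The count was 4 with no filter on cells or doublets, beside 2.58% and 19.9%, and 7 with the stricter filter, beside 3.14% and 15.1%. With cells thinned to 1000 UMIs it was 4, beside 3.02% and 13.8%. With classes weighted to the WT mix it was 6, where the share of all genes is not given here, and it stayed at 5 under the others. The median log2 ratio of all genes moved from −0.25 to 0.02 with TMM and 0.03 with median-of-ratios factors. The 9 clock genes that were higher in cKO were higher under their 10 alternatives, for which the share of all genes higher by any amount is not given here. Dbp ran from −0.70 to −0.39 under 9, but with the stricter filter it was at −0.06, beside −0.12 for the median of all genes, so that its lower value was no longer seen. Within classes, 514 values from 6 other clusterings, namings and cell filters held 30 outside the counting interval of the value reported, and 0 in which a called value changed sign. With the stricter filter Per1 was at 1.80 in interneuron-like and 3.25 in radial glia/astrocyte-like cells, and with classes from marker scores at 3.19 in mural-like cells. The cause was not tested. Depth limits Per2, Nr1d1, Arntl and Dbp in the smaller classes, where a library often held fewer than 10 UMIs.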
